A study of Mus musculus with 3 samples.

Results

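Complement regulators are the proteins that keep the complement cascade from attacking an animal's own cells. The genes described here are the membrane regulator genes Cd55b, Cd55, Cd46, Cr1l, Cd59a and Cd59b and the gene of the secreted regulator clusterin, Clu. They were chosen by symbol in the annotation of the array, with earlier results of these data known. Of the 7 genes, 6 were listed by name and Cd55b, also called Daf2, was added because the same rule names it, and together they are 7 of 19938 named genes. RNA came from BALB/c male mice, 30 days old and wild type, and was measured on 3 Affymetrix GeneChip Mouse Gene 1.0 ST arrays, numbered replicates of a single group labelled as spermatids. No second genotype, treatment or control group was given, so each level could only be set against a background measured on the same arrays. The labels describe a filtered suspension of cells from cut testis tubules with no sorting step. They do not say that the replicates came from separate animals, so the spread between them may be technical.

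Complement tags a surface with fragments of the C3 and C4 proteins, builds convertase enzymes on it, and ends in a pore, the membrane attack complex. CD55 speeds the decay of the convertases, CD46 is a cofactor for the cleavage of the tagging fragments, the rodent protein Crry (gene Cr1l) does both, and CD59 keeps the pore from forming. In the mouse, Cd46 is known as a gene expressed mainly in testis, its protein lying at the acrosome of sperm. Cd59b and Cd55b are duplicate genes known for strong expression in testis, while Cr1l, Cd55 and Cd59a are known from many tissues.

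Values are log2 levels from Robust Multichip Average (RMA), given as the mean ± SD of 3 arrays. Background was set at 7.98, which is the 95th percentile over 211 vomeronasal receptor and hair keratin associated protein genes. Whether any genes of these families were expressed in the cells was not tested. A gene is called above background where limma's one-sided adjusted p was under 0.05. By that call 36.6% of all named genes were above background, and 4 of the 7 regulator genes were: Cd55b, Cd55, Cd46 and Clu. Cr1l, Cd59a and Cd59b were not, which does not show that they were absent, since the median of the background families was far lower at 4.77. The count of 4 became 2 without replicate 2, where 35.6% of all genes were called, 3 without replicate 1 (33.4% of all genes) and 4 without replicate 3 (34.1%). It was 2 with the 99th percentile of the same families as background (19.3% of all genes), 3 with probe sets of several genes added (31.6%) and 6 with olfactory receptor genes as background (55%). Levels of different genes depend on how their probes bind, so no gene is tested against another here.

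**Figure D1:**
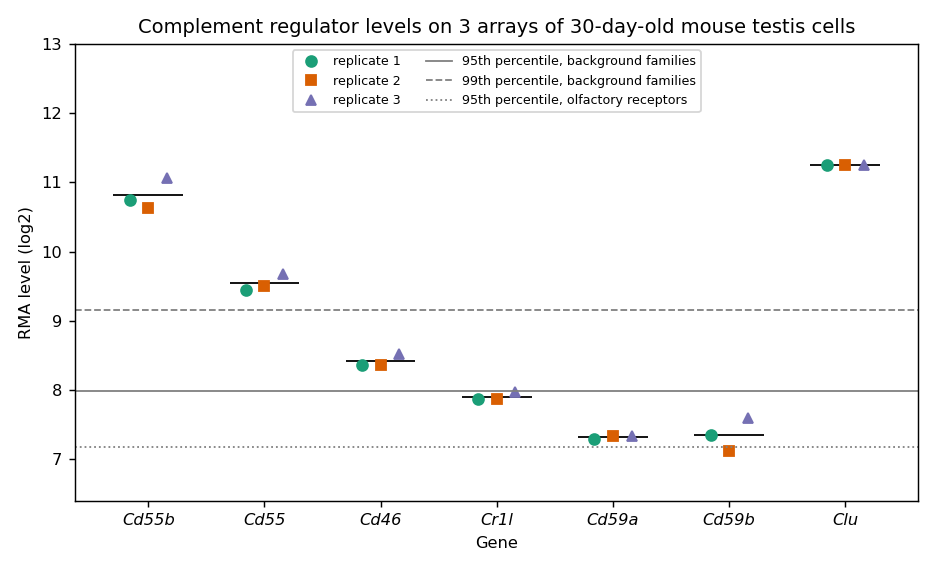
RMA levels (log2, vertical axis) of the 7 complement regulator genes on replicates 1, 2 and 3, with black bars for the mean and grey lines for the background levels of 7.98 (solid), 9.16 (dashed) and 7.18 (dotted). Clu, Cd55b, Cd55 and Cd46 lie above the solid line on all 3 arrays, and Cr1l, Cd59a and Cd59b lie below it on all 3.

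Cd55b and Cd55 lie next to each other on chromosome 1 with no protein-coding gene between them in the RefSeq gene order of GRCm38.p6. Cd55b encodes mainly a transmembrane form of decay accelerating factor and Cd55 the form held by a GPI anchor. The bases upstream of their starts are shown because these neighbouring copies were both called above background. The sequences show how alike these upstream stretches are, and the transcribed parts of the copies were not compared. The upstream bases of Cd46 are shown beside them as those of the gene known from germ cells. Each runs 250 bases up to the base before the transcript start that RefSeq lists for GRCm38.p6, all on the minus strand, at chr1:130423044-130423293 for Cd55b, chr1:130462745-130462994 for Cd55 and chr1:195092249-195092498 for Cd46. Capitals mark matches to the motifs named after the sequences, on either strand.
Cd55b: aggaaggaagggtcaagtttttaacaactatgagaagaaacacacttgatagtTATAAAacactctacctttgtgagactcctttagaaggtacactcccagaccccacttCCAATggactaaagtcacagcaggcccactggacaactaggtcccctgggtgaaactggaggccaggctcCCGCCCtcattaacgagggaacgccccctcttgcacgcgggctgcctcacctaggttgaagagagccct
Cd55: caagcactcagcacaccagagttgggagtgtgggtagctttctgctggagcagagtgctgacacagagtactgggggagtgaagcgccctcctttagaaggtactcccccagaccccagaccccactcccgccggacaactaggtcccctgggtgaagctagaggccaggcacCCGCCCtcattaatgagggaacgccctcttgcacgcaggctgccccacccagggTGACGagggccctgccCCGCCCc
Cd46: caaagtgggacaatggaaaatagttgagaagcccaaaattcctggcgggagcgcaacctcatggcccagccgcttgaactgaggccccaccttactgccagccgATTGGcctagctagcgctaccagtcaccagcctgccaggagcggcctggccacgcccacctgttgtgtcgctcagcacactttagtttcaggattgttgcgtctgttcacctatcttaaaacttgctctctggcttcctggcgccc

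In a local alignment the upstream sequences of Cd55b and Cd55 aligned over 172 columns, gaps included, with 136 identical bases (79.1%). The aligned stretch ran to the last upstream base of Cd55b and ended 10 bases short of that of Cd55. The best local alignment of the neighbouring pair Cd59b and Cd59a covered only 37 columns. The motifs searched were the cyclic AMP response element TGACGTCA, its shorter core TGACG, which the full element contains, the GC box GGGCGG, the CCAAT box CCAAT and the TATA box TATAAA. The full element was found upstream of none of the 6 regulator genes with a listed start, and upstream of 1.55% of all 32851 listed starts. The core TGACG was found once upstream of Cd55 and not of Cd55b, against 17.8% of all starts. The GC box was found 2 times upstream of Cd55 and 1 time upstream of Cd55b (32.7% of all starts), and CCAAT 1 time each upstream of Cd55b and Cd46 (33.8%). The TATAAA match of Cd55b (12.4% of all starts) lies in the stretch that did not align with Cd55. These matches describe letters only, and a missing match says nothing about any factor.

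Cd55b RNA was at 10.75, 10.63 and 11.07 on replicates 1, 2 and 3. All 3 arrays lay far above the background level, replicate 3 the highest. The mean of 10.82 ± 0.22 (SD, n = 3) was 2.83 above background (limma adjusted p = 0.00150) and exceeded all 211 background genes. Cd55b remained above background under every alternative run for it. The level stood at percentile 94.4 of all named genes, given as a description.

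Cd55 was at 9.45, 9.51 and 9.68, again with replicate 3 highest and all 3 arrays above the level. Its mean of 9.54 ± 0.12 (SD, n = 3) was 1.56 above background (limma adjusted p = 0.00141) and exceeded 210 of the 211 background genes. The call was lost without replicate 2, where the mean was 1.62 above background (limma adjusted p = 0.0530). It was also lost against the 99th percentile level of 9.16 (limma adjusted p = 0.0533, from 2.23e-05 to 0.0533 over its alternatives). Cd55b and Cd55 each had 1 probe set of their own and none that named several genes. Probe sequences were not used here, so whether RNA of one copy also binds probes of the other was not tested, and both levels are uncertain to that extent. In RNA of a mixed suspension, fewer cells of a type and less RNA per cell cannot be told apart, which holds for all genes here.

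Cd46 was at 8.37, 8.37 and 8.51, with replicates 1 and 2 tied and replicate 3 highest. The level lay only a little above background on every array. The mean of 8.42 ± 0.08 (SD, n = 3) was 0.43 above background (limma adjusted p = 0.0103), exceeded 204 of the 211 background genes and stood at percentile 69.1 of all named genes. The call did not hold without replicate 1 (limma adjusted p = 0.0846) or without replicate 2 (limma adjusted p = 0.109). With probe sets of several genes added to all genes, Cd46 itself kept its level, the background rose to 8.33 and the difference was 0.090 (limma adjusted p = 0.268). Against the 99th percentile background Cd46 lay below the level by -0.75. Its adjusted p ranged from 2.60e-17 to 1 over its alternatives, the lowest coming from replicates 1 and 2 alone, which are tied.

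Cr1l is the neighbour of Cd46 on chromosome 1, and the RefSeq spans of both genes, introns included, overlap in GRCm38.p6. Whether their exons overlap and where the probes lie was not examined, so whether a probe could bind RNA of both is not known. Cr1l was at 7.87, 7.87 and 7.97, just under the background level on all 3 arrays. Its mean of 7.91 ± 0.06 (SD, n = 3) differed from background by -0.08 and was not called (limma adjusted p = 1). It nevertheless exceeded 199 of the 211 background genes. Against the lower olfactory receptor level of 7.18 Cr1l was above background by 0.72 (limma adjusted p = 0.00105), a setting that called 55% of all genes. Cr2, the complement receptor gene next to Cr1l, was at 6.80 with tied values and was not called.

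Cd59a and Cd59b, the neighbouring genes of the membrane attack complex inhibitor on chromosome 2, both lay under the background level. Cd59a was at 7.29, 7.33 and 7.33, a mean of 7.32 ± 0.02 (SD, n = 3) and a difference from background of -0.67. Cd59b was at 7.35, 7.13 and 7.59, with replicate 2 lowest and replicate 3 highest. Its mean of 7.35 ± 0.23 (SD, n = 3) differed from background by -0.63. Neither was called (limma adjusted p = 1 for each), and each mean exceeded 196 of the 211 background genes. With the olfactory receptor level Cd59a was called at 0.13 above it (limma adjusted p = 0.00627). Cd59b was 0.17 above that level and not called (limma adjusted p = 0.261), its value on replicate 2 being under it. Cd59b is the copy known for testis expression, and its probe set gave no call here under any alternative run for it. Each copy had 1 probe set of its own, and whether their RNAs bind each other's probes was not tested.

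Clu, whose secreted protein binds the forming membrane attack complex, was at 11.24 on each of the 3 arrays, tied to the last deposited digit. It was 3.26 above background (limma adjusted p = 8.79e-11), at percentile 96.7 of all named genes. For a tied gene the SD of 0 reflects the deposited values and not an absence of error, and 46.0% of all genes were tied in this way. The adjusted p of a tied gene is therefore not a measure of error. Sele, also tied and only 0.053 above background, had a limma adjusted p of 7.16e-08. Clu was called under every alternative run for it, lying 2.08 to 4.06 above the level in them. Clu is known as a major product of Sertoli cells, the somatic nurse cells of the tubule, and of the epididymis. Of 12 measured Sertoli markers, Clu left out, 8 were above background (66.7%, against 36.6% of all genes). With the 99th percentile background 3 were called, where 19.3% of all genes were. The highest were Cst12 at 11.81 ± 0.04 and Ctsl at 11.37 ± 0.01 (SD, n = 3), and Amh at 5.91 was lowest. The summed linear level of the 12 markers ranged from 9650 to 10005 over the arrays. Of 13 measured epididymis markers none was called by limma after adjustment, 0 had an unadjusted p under 0.05 and 0 exceeded background on each of the 3 arrays. The part of Sertoli cells in the Clu level was not tested.

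The other regulator genes had a wider range between arrays than most named genes, a comparison that counts the 46.0% of genes tied on all 3 arrays. The range over the 3 arrays was 0.47 for Cd59b, 0.43 for Cd55b and 0.23 for Cd55, larger than that of 98.9%, 98.4% and 90.8% of all named genes. It was 0.15 for Cd46, 0.10 for Cr1l and 0.04 for Cd59a, larger than that of 81.7%, 74.0% and 60.1% of all named genes. The median range over all genes was 0.013. Tied genes raise these percentages and lower that median, so they do not show how the regulator genes compare with genes that vary. Replicate 3 was the highest array for 5 of the 7 genes, namely Cd55b, Cd55, Cd46, Cr1l and Cd59b. Over all genes it was highest for 18.3%, replicate 2 for 21.3% and replicate 1 for 2.16%. These shares are lowered by the 46.0% of genes tied on all 3 arrays, which have no highest array. Replicate 2 was lowest for Cd55b and Cd59b. On the arrays, the summed level of 9 pachytene spermatocyte markers (genes of mid-meiotic germ cells) ran from 30114 on replicate 2 to 33585 on replicate 3, a spread of 0.16 on the log2 scale. The summed level of 12 round spermatid markers ran from 31935 to 33298, with the lowest and highest on the same replicates. The summed epididymis level ran from 819 on replicate 1 to 1080 on replicate 3, but replicate 3 was highest for only 2 of its 13 genes. Among these 2, Adam7 was at 5.28, 6.61 and 8.26 on replicates 1, 2 and 3, so the sum does not describe the list as a whole. The part of these in the spread of the regulator genes was not tested.

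**Figure D2:**
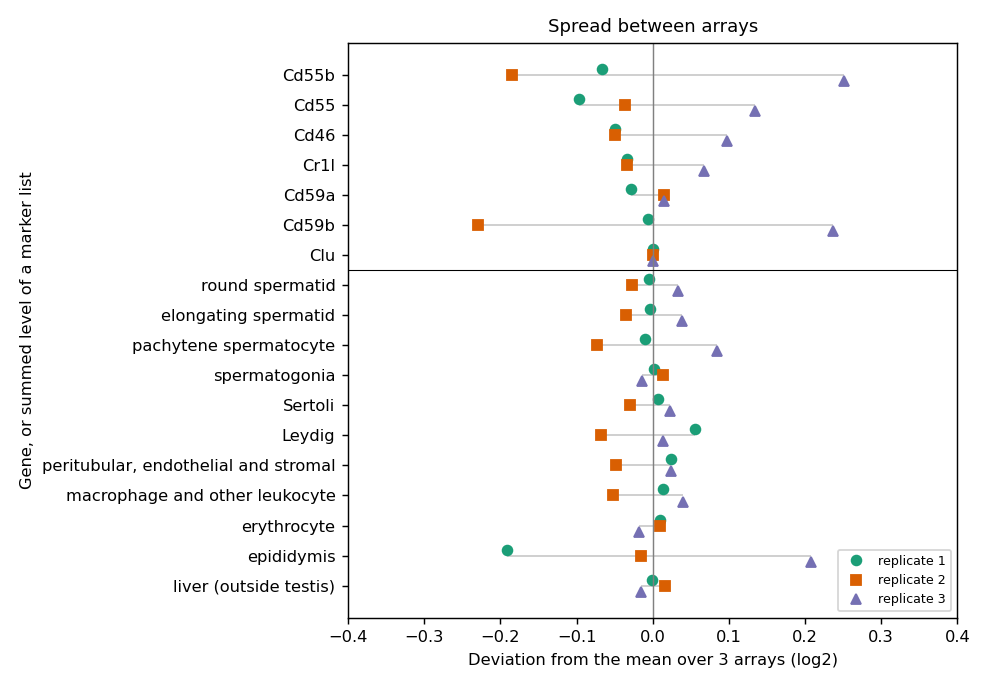
Deviation of each array from the mean over the 3 arrays (log2, horizontal axis) for the 7 regulator genes, above the black line, and for the summed linear level of each cell type marker list, below it. Replicate 3 is highest for Cd55b, Cd55, Cd46, Cr1l and Cd59b and for the summed round spermatid, elongating spermatid, pachytene, Sertoli, leukocyte and epididymis lists. The widest list spread is 0.40 for the epididymis markers, of which 2 of 13 genes are highest on replicate 3.

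The marker lists give the levels of genes known from each cell type. Whether a listed gene is particular to that cell type was not tested, so the counts do not settle which cells the suspension held. Of haploid cell markers, 11 of 12 round spermatid and 10 of 10 elongating spermatid genes were above background, among them Acrv1 at 12.07 ± 0.02 and Prm2 at 13.22 ± 0.04 (SD, n = 3), and the round spermatid gene not called was Tssk6 at 7.43 ± 0.10. All 9 pachytene spermatocyte genes and 7 of 7 measured Leydig cell genes were called too. The joint list for stroma, endothelium and peritubular cells had 5 calls among 11 genes (45.5%). The leukocyte list, macrophages included, had 4 among 9 (44.4%), and the spermatogonia list 2 among 9 (22.2%). The share over all genes was 36.6%, and differences from it were not tested. With the 99th percentile background the stromal list had 1 call, the leukocyte list 2 and the spermatogonia list 0. The Leydig list then had 6, and 19.3% of all genes were called. None of 3 erythrocyte genes and none of 6 liver genes was called, with 0 at an unadjusted p under 0.05 in limma and 0 above the level on all 3 arrays. Haemoglobin genes are named only by probe sets of several genes, and with those added Hba-a1 was at 8.15 and Hbb-b1 at 8.65, against a background of 8.33 in that setting (limma adjusted p = 1 and 0.0534). Markers of spermatids and of other cells were thus both above background, and the regulator levels cannot be assigned to germ cells alone.

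**Figure D3:**
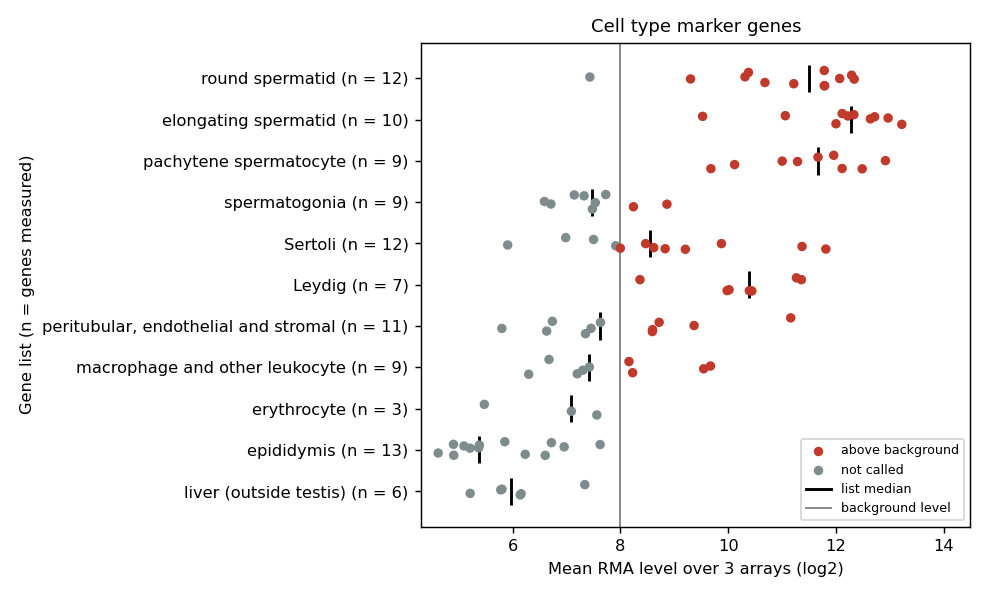
Mean RMA level over 3 arrays (log2, horizontal axis) of each measured marker gene by cell type, red where above background and grey where not called, with black bars for list medians and a grey line at 7.98. All measured elongating spermatid, pachytene and Leydig genes lie right of the line, and all erythrocyte, epididymis and liver genes lie left of it.

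Most other genes of the complement system were not called. The other genes were taken in 4 lists, of mostly soluble regulators, initiating and C3 pathway components, terminal components and receptors. Over these lists 6 of 47 measured genes (12.8%) were above background, against 36.6% of all genes. The median level of these 47 genes was 6.78, against 7.45 over all named genes and 8.42 over the 7 regulator genes. The regulator median is the level of Cd46, whose call did not hold under every alternative. The 6 were 2 soluble regulators, 2 terminal components and 2 receptors, and the count was 1 with the 99th percentile background and 14 with the olfactory receptor background.

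Among these mostly soluble regulators 2 of 10 measured genes were called. The list also holds some genes of membrane proteins, none of them called. Serping1, which encodes the inhibitor of the C1 proteases, was at 9.27, 9.25 and 9.37, a mean of 9.30 ± 0.06 (SD, n = 3; limma adjusted p = 0.000561). The factor H related gene Cfhr3 was at 8.90, 8.76 and 9.04, a mean of 8.90 ± 0.14 (limma adjusted p = 0.00606). The lowest were C4bp, which encodes the C4b binding protein, at 5.88 and, below it with tied values, Cfi, a protease for which CD46 and Crry act as cofactors. Factor H was not measured by a probe set that names it here.

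Of 19 measured components that start the cascade or act around C3, none was called by limma after adjustment, 0 had an unadjusted p under 0.05 and 0 exceeded background on each of the 3 arrays. Their levels ran from 6.15 to 7.86 with a median of 7.11, and 6 of them were called against the olfactory receptor background. The lowest were the collectin genes Colec10 at 6.21 ± 0.07 (SD, n = 3) and Mbl1 at 6.15 with tied values. C3 itself was not measured here. Of 7 terminal components 2 were called. C7, a subunit of the membrane attack complex, was at 9.81, 9.48 and 9.85, a mean of 9.71 ± 0.20 (limma adjusted p = 0.00338). C8g, the gamma chain of C8, was at 8.62 ± 0.02 (limma adjusted p = 0.000216). The lowest were C6 at 5.67 and C9, the pore-forming subunit that CD59 blocks, at 5.05 with tied values.

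Of 11 receptor genes 2 were called, and both encode proteins with wide roles inside cells. Calr, the endoplasmic reticulum chaperone calreticulin, was at 10.79 with tied values, and C1qbp, a mitochondrial protein that can bind C1q, was at 9.27 ± 0.04 (SD, n = 3; limma adjusted p = 0.000174). The leukocyte receptor genes Itgax at 5.84 and C5ar1 at 5.77 were lowest. With probe sets of several genes added 3 were called, the third being Itgam, whose added probe sets also name the ribosomal protein gene Rpl35.

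**Figure D4:**
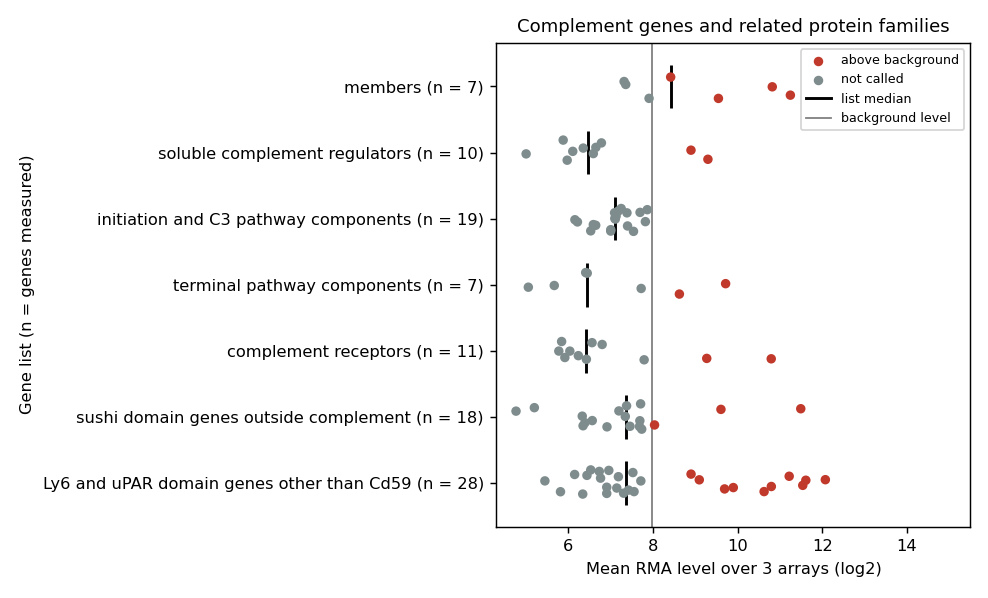
Mean RMA level over 3 arrays (log2, horizontal axis) of the 7 regulator genes (the row named members), of 4 complement lists and of 2 protein families, red where above background and grey where not called, with black bars for medians and a grey line at 7.98. The regulator median of 8.42, which is the level of Cd46, lies right of the line, and the medians of the other lists, from 6.42 to 7.36, lie left of it. The call of Cd46 did not hold under every alternative.

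The regulators belong to gene families with other roles in testis. CD55, CD46 and Crry are built from sushi domains, a small fold shared with proteins outside complement. Of 18 measured sushi domain genes outside complement 3 were called (16.7%, against 36.6% of all genes). With the olfactory receptor background 10 were called, where 55% of all genes were. Zp3r, an acrosomal sperm protein whose gene follows Cd55 on chromosome 1 with no protein-coding gene between them, was at 11.46, 11.44 and 11.57, a mean of 11.49 ± 0.07 (SD, n = 3; limma adjusted p = 9.23e-05). C4bp, not called, is the next protein-coding gene after Zp3r. The plasma protein gene Apoh was at 9.60 ± 0.06 (limma adjusted p = 0.000319). The endothelial selectin gene Sele was at 8.04 with tied values, close to the background level, and was not called with probe sets of several genes added. The lowest were Il2ra at 5.20 and F13b at 4.76.

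CD59 has the fold of the Ly6 and uPAR family, which includes several sperm surface proteins. Of 28 measured family members other than the Cd59 genes, 10 were called (35.7%), a share near that of all genes. The highest were Acrv1, the acrosomal protein SP-10, at 12.07 and Gml at 11.61 ± 0.07 (SD, n = 3). Ly6g6c followed at 11.54 with tied values, Lypd4 at 11.22 ± 0.08 and Lypd9 at 10.79 ± 0.01. Tex101, a germ cell surface protein needed for sperm fertility, was at 10.62 ± 0.02 (limma adjusted p = 1.41e-05). The lowest were Lypd6b at 5.81 and Pate4 at 5.44. Acrv1 is also in the round spermatid list, so these lists are not independent.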

How the data were processed

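Total RNA (200 ng) of cells passed through a 70 µm strainer was labelled and hybridised to 3 arrays, per the labels' protocols. The deposited values are log2 probe set levels made by the authors with RMA in Affymetrix Power Tools on mm9 annotation, per the series' design text, with the software version not given in the sources used here. No scanner files were used, and the number of arrays limits the precision.

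Of 35556 probe sets, 21789 named 1 gene in the platform annotation, 1621 several and 12146 none. Symbols were updated by Entrez identifier to RefSeq GRCm38.p6 (21698 matched). A gene's level is the median of the probe sets naming it alone. Array medians were 7.17, 7.20 and 7.17, and Pearson's r between arrays was 0.992 to 0.995 over probe sets.

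Levels were tested against background in limma 3.58.1 (R 4.3.3) with an intercept model over 19938 genes and empirical Bayes variances (0.267 prior degrees of freedom, because of ties). The p-values were adjusted over all genes. The test was also run on simulated data without tied genes, so that run says nothing about the 46.0% of genes tied here. The background families were 167 vomeronasal and 44 Krtap genes, and the alternative family 1027 olfactory receptor genes. Upstream sequences were matched by symbol for 6 of 7 genes and aligned with Biopython 1.88 (match 1, mismatch -1, gap opening -2, extension -1). Named from each list were the called genes, or the 6 highest where over 6 were called, and the 2 lowest. Of each cell type's markers at most 3 of the highest and the lowest could be named, and not every list has one named. Factor H, C3, Cr2, Itgam, Adam7 and the haemoglobin genes were named after their values were seen. Members and lists were chosen with earlier results of these data known.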

Additional observations from a re-analysis of the deposited data

How the results depend on the processing

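The calls of Cd55b and Clu held under all alternatives run for them. For Clu, whose deposited values are tied, this reflects its level and not a measured error. The background level moved results most. With the 99th percentile of the background families, 3847 genes, 2 of the 7 regulator genes, 1 of the 47 other complement genes and 8 Ly6 and uPAR genes were called, Cd55 lay 0.38 above the level without passing (limma adjusted p = 0.0533) and Cd46 lay at -0.75 (limma adjusted p = 1). With olfactory receptors as background, 10958 genes, 14 complement genes, 10 sushi domain genes and 14 Ly6 and uPAR genes were called, and Cr1l at 0.72, Cd59a at 0.13 and Cd59b at 0.17 moved above the level, Cd59b without passing. With probe sets of several genes added, Cd46 was 0.090 above the level (limma adjusted p = 0.268). Leaving out each replicate in turn gave 2 to 4 regulator genes, 4 to 5 complement genes and 6662 to 7090 genes, with Cd46 from 0.39 to 0.50 and Cd55 from 1.50 to 1.62 above the level. The lower count of 2 came without replicate 2. Shifting arrays to the same median, the highest probe set per gene, a trend and robust variance prior, all 3 arrays above the level, and testing only genes above the median level ended no call of a regulator gene. The last left Cd59a and Cd59b untested. No paired analysis was possible because there is only 1 group.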
